A study of Mus musculus with 18 samples.

Results

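The RNA-binding proteins of the MBNL, PTBP, RBFOX and CELF families set tissue patterns of alternative splicing. Of these families, 9 genes (Mbnl1, Mbnl2, Mbnl3, Ptbp1, Ptbp2, Ptbp3, Rbfox2, Celf1 and Celf2) are described here together with Rbm39, a splicing factor related to the large subunit of U2AF. The 10 genes were chosen by their GENCODE M21 symbols, out of 46167 genes to which the deposited transcripts could be summed. All 10 passed the filter on low counts that left 17500 genes for testing, and 107 of their 147 quantified transcripts passed the same filter for transcripts.

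The libraries came from CD-1 mouse embryos at E14.5. Fetal liver suspensions were enriched for hematopoietic progenitors with a commercial kit to which a CD71 antibody was added, and were infected with an MSCV retrovirus that carries puromycin resistance, GFP and a short hairpin RNA. Day 0 cells were collected after 48 hours in a medium with dexamethasone, erythropoietin and SCF, and Day 2 cells after 2 further days in a differentiation medium with erythropoietin. On each day there were 3 control libraries (LUC-1, a luciferase hairpin, and the scrambled hairpins SCR-1 and SCR-2), 3 PCBP1 knockdown libraries and 3 PCBP2 knockdown libraries (hairpins SH1, SH3 and SH4 in each), which makes 6 groups of 3 and 18 libraries. All groups, controls included, carry the retroviral vector and a hairpin, and replicates within a knockdown are different hairpins. The labels do not say whether libraries come from separate cultures or litters, and a p-value here reflects how much these libraries vary, which may be technical.

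Total depth ranged from 27033440 to 54096339 estimated reads per library. Pcbp1 was left at 7.21% to 30.3% of the control mean at Day 0 and at 5.83% to 21.3% at Day 2 in the PCBP1 knockdown libraries. Pcbp2 was left at 24.4% to 25.5% at Day 0 and at 15.8% to 20.5% at Day 2 in the PCBP2 knockdown libraries. The summed level of 10 erythroid markers (among them Klf1 and the globins) was 3698 to 4285 CPM in Day 0 controls and 453183 to 625406 CPM in Day 2 controls, and the 7 progenitor markers (among them Kit and Gata2) summed to 571 to 586 CPM and 31.2 to 41.3 CPM. Globin transcripts took 0.3% to 0.48% of reads at Day 0 and 24.73% to 33.46% at Day 2. The CPM values are scaled by TMM factors, as described below, and cannot be read as shares of reads. These are bulk libraries, in which fewer cells of a type and less RNA per cell cannot be told apart.

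MBNL proteins carry zinc fingers that bind pyrimidine-GC-pyrimidine motifs, and they promote or repress an exon according to where they bind around it. In many tissues their activity grows as cells mature. PTBP1 binds pyrimidine-rich tracts and mostly represses exons, among them exons of its own family: skipping of a 34-base exon in Ptbp1 or Ptbp2 shifts the reading frame and marks the transcript for nonsense-mediated decay. RBFOX proteins bind GCATG, and CELF proteins bind GU-rich sequence and often act opposite to MBNL. Most of these genes are themselves alternatively spliced, and several regulate their own transcripts.

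The cassette exons on which the splicing results turn are shown first, 5′ to 3′ on the sense strand, with GRCm38 positions and GENCODE M21 annotation. In the MBNL family, capitals mark the bases that Mbnl1 and Mbnl2 share in an alignment without gaps. The 54-base exon, whose inclusion is known to favour a nuclear location of the protein, lies at chr3:60614683-60614736 (plus strand, in 5 of 25 annotated Mbnl1 transcripts) and chr14:120395712-120395765 (plus strand, in 3 of 10 Mbnl2 transcripts). The 36-base exon lies downstream of it, at chr3:60621423-60621458 (7 of 25) and chr14:120403336-120403371 (2 of 10).
Mbnl1 54-base exon: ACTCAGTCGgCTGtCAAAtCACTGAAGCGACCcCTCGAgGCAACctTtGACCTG
Mbnl2 54-base exon: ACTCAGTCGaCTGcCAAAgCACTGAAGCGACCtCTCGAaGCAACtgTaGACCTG
Mbnl1 36-base exon: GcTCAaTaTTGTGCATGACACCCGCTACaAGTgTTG
Mbnl2 36-base exon: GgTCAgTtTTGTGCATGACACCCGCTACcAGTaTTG
The genes shared 46 of 54 bases (85.2%) and 31 of 36 bases (86.1%). Both lengths are whole numbers of codons, so skipping either exon keeps the reading frame.

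In the PTBP family, the 34-base exon lies at chr10:79862014-79862047 (Ptbp1, plus strand, 4 of 16 transcripts), chr3:119724612-119724645 (Ptbp2, minus strand, 3 of 13) and chr4:59485339-59485372 (Ptbp3, minus strand, 9 of 13). Capitals mark the 19 of 34 bases (55.9%) that are identical in all 3 genes. The 78-base exon of Ptbp1 (chr10:79860117-79860194, 3 of 16 transcripts) encodes part of the linker between its RNA-binding domains and is in frame. The second exon of Ptbp3 (chr4:59546149-59546182, 5 of 13) also has 34 bases and is joined to alternative first exons.
Ptbp1 34-base exon: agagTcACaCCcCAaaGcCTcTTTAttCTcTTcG
Ptbp2 34-base exon: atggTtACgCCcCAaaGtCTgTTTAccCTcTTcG
Ptbp3 34-base exon: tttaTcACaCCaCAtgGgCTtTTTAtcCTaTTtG
Ptbp1 78-base exon: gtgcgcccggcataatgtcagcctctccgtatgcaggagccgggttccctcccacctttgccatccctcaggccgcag
Ptbp3 second exon: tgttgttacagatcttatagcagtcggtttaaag
The 73-base exon of Rbm39 (chr2:156178880-156178952, minus strand, 5 of 25 transcripts) is not a whole number of codons. In Rbm39-225, annotated as a target of nonsense-mediated decay, it holds a stop codon, in capitals.
Rbm39 73-base exon: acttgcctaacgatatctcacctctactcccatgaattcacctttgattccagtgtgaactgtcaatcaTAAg

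All 10 genes differed between Day 0 and Day 2 in every condition, 4 upward (Mbnl1, Mbnl2, Ptbp3 and Rbm39) and 6 downward (Mbnl3, Ptbp1, Ptbp2, Rbfox2, Celf1 and Celf2). The MBNL family and the PTBP family each held members that went in opposite directions. The background is high: edgeR called 82.9% of tested genes between the days in controls, 82% in PCBP1 knockdown and 83.1% in PCBP2 knockdown, with 40.5% rising and 42.4% falling in controls, 40.3% and 41.7% in PCBP1 knockdown and 41% and 42.2% in PCBP2 knockdown. A count of 10 of 10 is therefore near what most genes showed, and the sizes and the order of the members carry the description.

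Ordered per length, as transcript abundance scaled to a common total and to length (TPM), the Day 0 controls were led by Rbm39 at 343 ± 35.0 TPM (SD, n = 3) and Ptbp1 at 317 ± 21.7 TPM, whose ranges overlapped. Below them came Mbnl1 at 130.1 ± 16.6, Ptbp3 at 80.4 ± 5.8, Celf1 at 68.6 ± 3.5 and Ptbp2 at 30.7 ± 3.79 TPM, with ranges apart from one another. Mbnl3 at 16.3 ± 1.53 and Celf2 at 15.2 ± 0.621 TPM overlapped, Mbnl2 followed at 11.9 ± 0.688 TPM, and Rbfox2 was last at 0.376 ± 0.0274 TPM. Ptbp1 was thus the most abundant PTBP gene and Mbnl1 the most abundant MBNL gene.

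In Day 2 controls Rbm39 still led, at 312 ± 38.9 TPM, and Ptbp3 was next at 223 ± 56.0 TPM, ahead of Mbnl1 at 116 ± 28.8 TPM. Ptbp1 at 19.0 ± 3.3, Mbnl2 at 15.8 ± 3.91 and Celf1 at 12.1 ± 2.36 TPM followed, each overlapping its neighbour. Ptbp2 at 3.24 ± 0.454, Mbnl3 at 1.99 ± 0.585, Celf2 at 1.0 ± 0.31 and Rbfox2 at 0.0135 ± 0.0135 TPM closed the order with ranges apart. Between the days Ptbp3 and Ptbp1 exchanged places within their family. TPM divides by a total that includes globin at Day 2, so the order within a day can be read from it. Changes between days are given below in counts scaled to the library total after its adjustment by TMM factors (CPM). Such CPM are not shares of a library's reads.

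**Figure D1:**
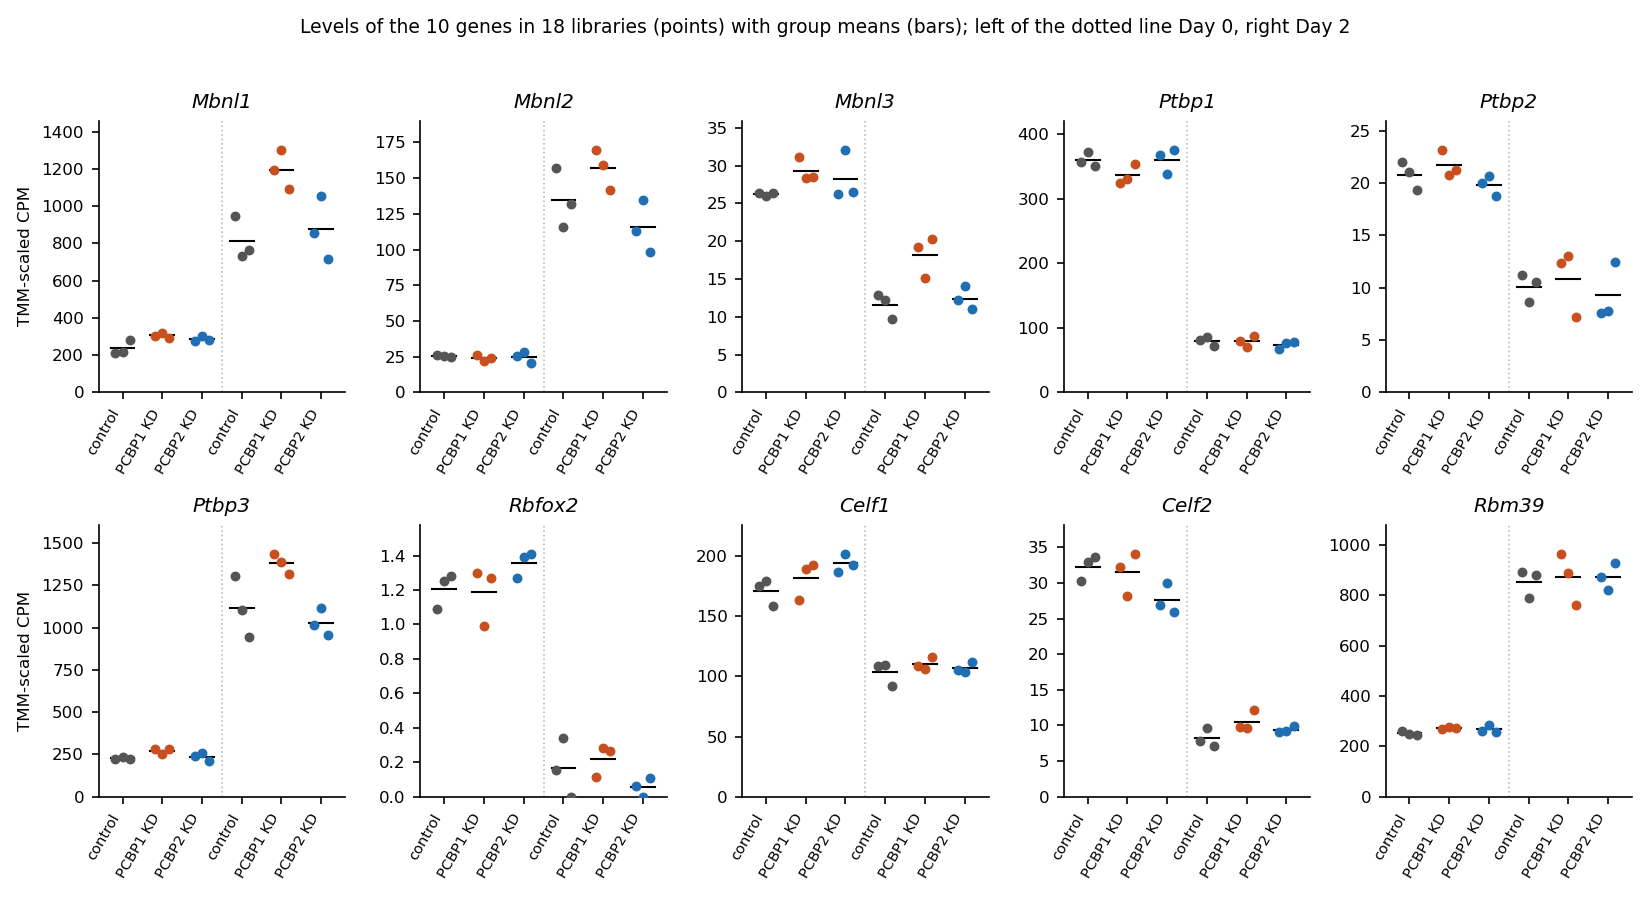
Level of each of the 10 genes in 18 libraries (points) with group means (bars), in TMM-scaled CPM on linear axes from 0, by condition, Day 0 left and Day 2 right of the dotted line. Mbnl1, Mbnl2, Ptbp3 and Rbm39 lie higher at Day 2 than at Day 0 in all 3 conditions, the other 6 genes lie lower, and at Day 2 the PCBP1 knockdown libraries of Mbnl1, Mbnl3 and Ptbp3 lie above the controls.

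Among the MBNL genes, Mbnl1 was at 210, 216 and 282 CPM at Day 0 in SCR-1, SCR-2 and LUC-1, the order used for controls throughout, and at 949, 730 and 763 CPM at Day 2. Every Day 2 library lay above every Day 0 library, and the log2 fold change was 1.79 (SE 0.14, adjusted p = 5.60e-11, edgeR quasi-likelihood test with Benjamini-Hochberg adjustment), or 3.45-fold. Mbnl2 was at 26.0, 25.6 and 24.8 CPM at Day 0 and at 157, 116 and 132 CPM at Day 2. Its log2 fold change of 2.41 (SE 0.14, edgeR adjusted p = 4.85e-13, 5.3-fold) was the largest rise of the 10. Mbnl3, the X-linked paralog that is known from proliferating precursor cells, was at 26.3, 26.0 and 26.3 CPM at Day 0 and 12.9, 12.2 and 9.72 CPM at Day 2. It fell 2.25-fold (log2 fold change -1.17, SE 0.13, edgeR adjusted p = 3.45e-08).

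Ptbp1 was at 357, 372 and 351 CPM in Day 0 controls and at 80.9, 86.2 and 71.4 CPM at Day 2. It fell 4.53-fold (log2 fold change -2.18, SE 0.10, edgeR adjusted p = 9.97e-15). Ptbp2, the paralog best known from neurons, was at 22.0, 21.1 and 19.3 CPM and then at 11.2, 8.62 and 10.5 CPM, a 2.06-fold fall (log2 fold change -1.04, SE 0.18, edgeR adjusted p = 2.05e-05). Ptbp3, the paralog known from blood cells, went the other way. It was at 224, 235 and 224 CPM and then at 1306, 1104 and 945 CPM, a 4.91-fold rise (log2 fold change 2.30, SE 0.11, edgeR adjusted p = 2.20e-14).

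Rbfox2 was close to the detection limit at Day 2. It was at 1.09, 1.25 and 1.28 CPM in Day 0 controls, and at 0.152, 0.339 and 0.0 CPM at Day 2, where the controls held 3, 7 and 0 reads. The fitted log2 fold change was -2.79 (SE 0.46, edgeR adjusted p = 1.12e-05) and rests on these few reads. Celf1 was at 175, 179.6 and 159 CPM and then at 109, 109.9 and 92.3 CPM, a 1.65-fold fall (log2 fold change -0.72, SE 0.09, edgeR adjusted p = 2.50e-07), the smallest of the 10 on this scale. Celf2 was at 30.3, 33.0 and 33.6 CPM and then at 7.77, 9.68 and 7.04 CPM, a 3.94-fold fall (log2 fold change -1.98, SE 0.13, edgeR adjusted p = 3.68e-12). Rbm39 was at 259, 248 and 245 CPM and then at 893, 787 and 882 CPM, a 3.41-fold rise (log2 fold change 1.77, SE 0.09, edgeR adjusted p = 1.06e-13).

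**Figure D2:**
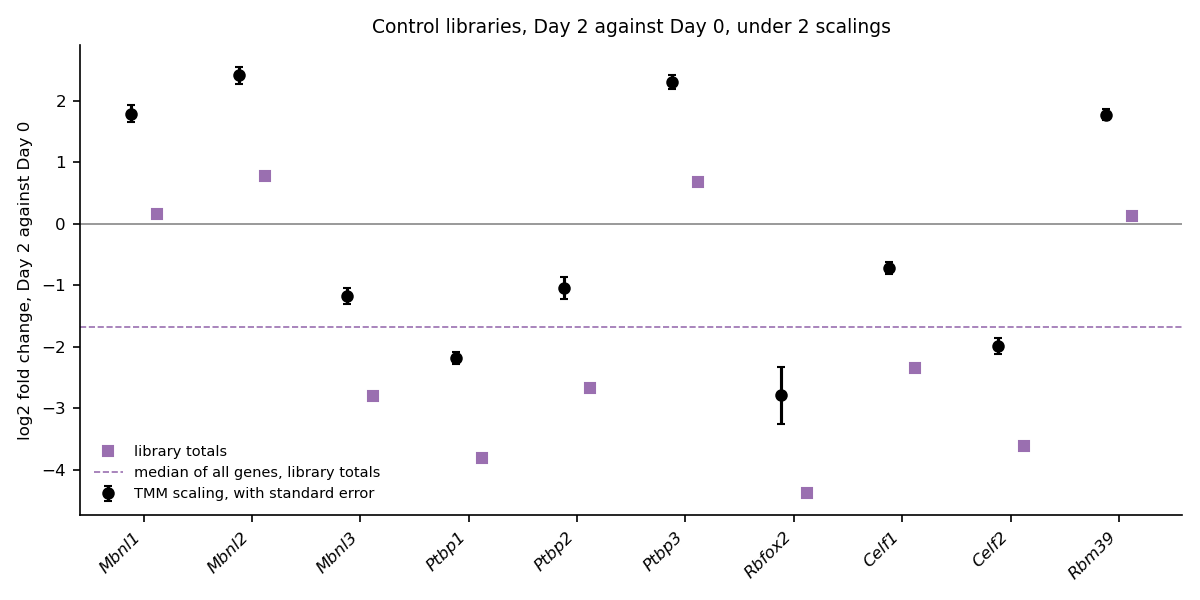
Log2 fold change of each gene in control libraries, Day 2 against Day 0, with TMM scaling (circles, bars are standard errors) and with library totals (squares), and the median of all genes on library totals (dashed line). On both scalings Mbnl1, Mbnl2, Ptbp3 and Rbm39 lie above 0 and the other 6 genes below it, and on library totals Mbnl1 (0.16) and Rbm39 (0.13) are close to 0 and were not called.

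These sizes depend on the scale. With library totals in place of TMM factors, the median of all tested genes was -1.68 on the log2 scale in controls, and 3560 genes rose and 11368 fell, against 7087 and 7421 with TMM. On that scale Mbnl1 (log2 fold change 0.16) and Rbm39 (0.13) were not called, Mbnl2 (0.78) and Ptbp3 (0.67) still rose, and the 6 falls deepened, from -2.35 for Celf1 to -4.38 for Rbfox2. No member reversed, and all 4 that rose under TMM lay above the median of all genes on either scale. Markers of other cell types also differed between the days: the 6 hepatocyte markers summed to 9.19 to 11.1 CPM in Day 0 controls and to at most 0.445 CPM at Day 2, and the 9 macrophage and monocyte markers to 97.1 to 122 CPM and 242 to 309 CPM. That last sum follows Lyz2 (means of 83.2 and 263 CPM), while 7 of the 9, such as Csf1r (12.6 and 4.71 CPM) and C1qb (2.35 and 0.0863 CPM), had lower means at Day 2. Their part in the members' changes was not tested.

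The knockdown libraries showed the same 4 rises and 6 falls. In PCBP1 knockdown the log2 fold changes between the days ran from -2.42 (SE 0.45) for Rbfox2 and -2.09 (SE 0.10) for Ptbp1 to 2.70 (SE 0.14) for Mbnl2. In PCBP2 knockdown they ran from -4.51 (SE 0.59) for Rbfox2, which was at 0.0635, 0.0 and 0.109 CPM at Day 2, to 2.22 (SE 0.14) for Mbnl2. Whether a knockdown effect itself differed between the days was tested with an interaction contrast. edgeR called 0 of 10 members for PCBP1 (0.389% of all genes were called) and 0 of 10 for PCBP2 (0% of all genes). At an unadjusted p under 0.05 there were 2 members for PCBP1 (Mbnl3, difference 0.48, SE 0.18, and Celf2, 0.40, SE 0.18) and 1 for PCBP2 (Celf2, 0.43, SE 0.18). DESeq2 called 0 members in either contrast. Celf2 had DESeq2 adjusted p = 0.219 for PCBP1 and 0.252 for PCBP2.

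Within Day 0, neither knockdown changed any of the 10 genes by edgeR's test or by DESeq2. PCBP1 knockdown against control gave 0 of 10 calls, where 0.88% of all genes were called (0.0457% rose and 0.834% fell). At an unadjusted p under 0.05 there were 2 members, Mbnl1 and Ptbp3. Mbnl1 was at 305, 321 and 292 CPM in the knockdown libraries SH1, SH3 and SH4, above the 210 to 282 CPM of the controls (log2 fold change 0.38, SE 0.13, edgeR adjusted p = 0.24). Ptbp3 was at 283, 250.3 and 279 CPM, above the 224 to 235 CPM of the controls (log2 fold change 0.25, SE 0.10, edgeR adjusted p = 0.367). The groups did not overlap for 4 members (Mbnl1, Mbnl3, Ptbp3 and Rbm39), against 24.8% of all genes. Fitted on the 9 Day 0 libraries alone, Mbnl1 and Ptbp3 passed the threshold, at edgeR adjusted p = 0.0263 and 0.0477. The progenitor markers summed to 513 to 550 CPM in this knockdown and 571 to 586 CPM in controls, and the hepatocyte markers to 3.52 to 7.52 and 9.19 to 11.1 CPM, both without overlap. Of the progenitor markers, Kit had a lower mean in the knockdown (333 and 381 CPM), as did Cd34, Gata2, Spi1 and Flt3. Myb (141 and 125 CPM) and Meis1 (3.1 and 3.04 CPM) had higher means. The part of these markers was not tested.

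PCBP2 knockdown against control at Day 0 gave 0 of 10 calls, where 0.0229% of all genes were called, and 1 member (Mbnl1, log2 fold change 0.28, SE 0.13) had an unadjusted p under 0.05. The groups did not overlap for 2 members, Celf1 and Celf2, against 13.5% of all genes. Celf1 was at 187, 202 and 193 CPM in the knockdown and at 159 to 179.6 CPM in the controls. Celf2 was at 26.9, 30.0 and 26.0 CPM and at 30.3 to 33.6 CPM. The knockdowns set against each other gave 0 of 10 calls (0.28% of all genes) and 0 members at an unadjusted p under 0.05.

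At Day 2, 2 of the 10 genes rose in PCBP1 knockdown, both MBNL genes. edgeR called 13.1% of all genes in this comparison (5.51% rose and 7.61% fell). Mbnl1 was at 1194, 1303 and 1089 CPM in the knockdown libraries (1195 ± 107, SD, n = 3) and at 949, 730 and 763 CPM in the controls (814 ± 118), with no overlap. Its log2 fold change was 0.55 (SE 0.13, edgeR adjusted p = 0.00769), or 1.47-fold. Mbnl3 was at 19.2, 15.1 and 20.3 CPM (18.2 ± 2.71) and at 12.9, 12.2 and 9.72 CPM (11.6 ± 1.68), again with no overlap. Its log2 fold change was 0.64 (SE 0.13, edgeR adjusted p = 0.00305), or 1.56-fold, so Mbnl3 in the knockdown lay between its Day 2 and Day 0 control levels. Both calls held in each of 6 fits that left out 1 library, at 0.50 to 0.71 for Mbnl1 and 0.53 to 0.80 for Mbnl3. With a GC trend removed, the Mbnl1 value was 0.38 and edgeR's adjusted p was 0.0607.

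The other 8 members did not pass the threshold in that comparison. Ptbp3 was at 1436, 1388 and 1318 CPM, all above the 945 to 1306 CPM of the controls (log2 fold change 0.30, SE 0.10, edgeR adjusted p = 0.0593). It was called by DESeq2 (adjusted p = 0.0243) and by edgeR without the control SCR-1 (0.46, adjusted p = 0.00745). Celf2 was at 9.74, 9.64 and 12.1 CPM against 7.77, 9.68 and 7.04 CPM (log2 fold change 0.36, SE 0.13, edgeR adjusted p = 0.0832). DESeq2 called it (adjusted p = 0.0391), as did edgeR without the control SCR-2 (0.54, adjusted p = 0.0231) or without the hairpin SH3 (0.46, adjusted p = 0.0462). Mbnl2 was at 170, 159 and 142 CPM against 157, 116 and 132 CPM (0.22, edgeR adjusted p = 0.308). Ptbp1 was at 80.0, 70.0 and 86.7 CPM, around the 71.4 to 86.2 CPM of its controls on both sides (-0.01, SE 0.10). Ptbp2 (0.11, SE 0.19), Celf1 (0.09, SE 0.09), Rbm39 (0.03, SE 0.09) and Rbfox2 (0.34, SE 0.66) had differences smaller than or near their errors.

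The groups did not overlap for 3 of 10 members (Mbnl1, Mbnl3 and Ptbp3), against 22.1% of all genes. The median log2 fold change of the 10 was 0.26, against 0.02 over all genes. With library totals in place of TMM factors, the median of all genes was 0.25 (0.02 with TMM), 3454 genes rose and 626 fell (964 and 1332 with TMM), and 6 members were called. The summed erythroid markers were at 361042 to 382639.9 CPM in the PCBP1 knockdown, below the 453183 to 625406 CPM of the controls. Hbb-bs (means of 212959 and 281055 CPM) and Hba-a1 (125924 and 218113 CPM) made up most of these sums. Every listed erythroid marker had a lower mean in the knockdown, Klf1 at 188 and 369 CPM but Alas2 nearly equal at 12105 and 12141 CPM. The 8 lymphoid markers summed to 13.8 to 21.6 CPM, above the 8.32 to 10.1 CPM of the controls, in which Cd3e and Rag1 were at 0. Il7r carried this difference (means of 11.9 and 3.25 CPM), while Cd79a was at 5.56 and 5.41 CPM. The part of these differences in the MBNL result was not tested.

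PCBP2 knockdown at Day 2 gave 0 of 10 calls, where edgeR called 4.7% of all genes (0.949% rose and 3.75% fell). No member had an unadjusted p under 0.05, DESeq2 called 0, and the groups overlapped for all 10, while they did not for 18.5% of all genes. Mbnl1 was at 858, 1053 and 717 CPM (876 ± 169, SD, n = 3), Mbnl3 at 12.2, 14 and 11 CPM and Ptbp3 at 1015, 1116 and 958 CPM, each spanning or overlapping the control range. The summed erythroid markers were at 369608 to 447364 CPM, below the controls. Hbb-bs (means of 229601 and 281055 CPM) and Hba-a1 (137553 and 218113 CPM) made up most of these sums. Alas2 (12391 and 12141 CPM) and Epb42 (1677 and 1667 CPM) had higher means in the knockdown, and the other listed erythroid markers lower ones. The 7 endothelial and stromal markers were at 32.7 to 35.6 CPM, above the 25.8 to 29.8 CPM of the controls, in which Cdh5, Col3a1 and Dcn were at 0. The part of these differences in the PCBP2 knockdown results, transcripts included, was not tested.

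**Figure D3:**
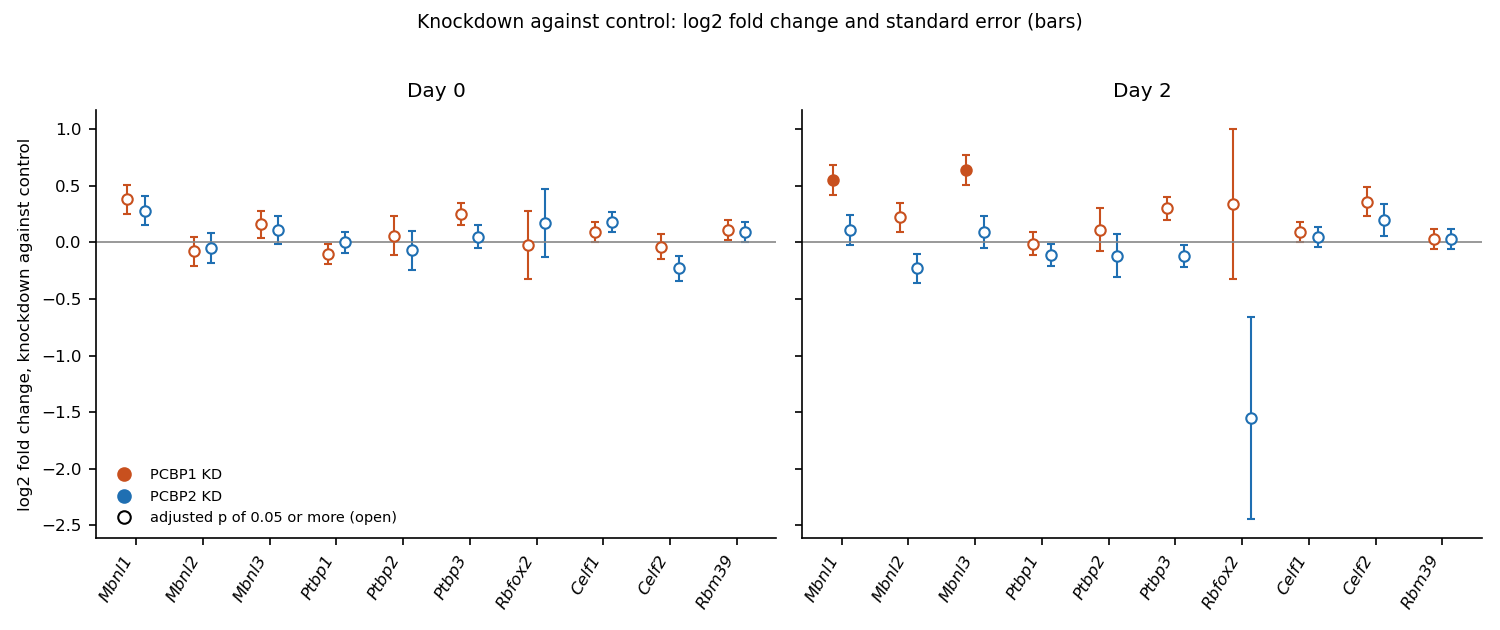
Log2 fold change of each gene against control, with its standard error as bars, for PCBP1 knockdown (orange) and PCBP2 knockdown (blue) at Day 0 (left) and Day 2 (right), from edgeR with TMM scaling. Filled points have an adjusted p under 0.05, which holds for Mbnl1 (0.55) and Mbnl3 (0.64) in PCBP1 knockdown at Day 2 and for no other point, and Rbfox2 has the widest bars.

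Set directly against each other at Day 2, the knockdowns differed in 4 members. Mbnl1, Mbnl2, Mbnl3 and Ptbp3 were lower in PCBP2 than in PCBP1 knockdown, where edgeR called 12.1% of all genes and 7.3% were lower. The log2 differences (PCBP2 minus PCBP1) were -0.45 (SE 0.13, edgeR adjusted p = 0.0308) for Mbnl1, -0.44 (SE 0.13, adjusted p = 0.0315) for Mbnl2, -0.55 (SE 0.13, adjusted p = 0.0115) for Mbnl3 and -0.42 (SE 0.10, adjusted p = 0.0123) for Ptbp3. Mbnl2 was at 113, 135 and 98.4 CPM in PCBP2 knockdown and at 170, 159 and 142 CPM in PCBP1 knockdown, without overlap. For these 4 genes and Rbfox2 the groups did not overlap, against 25.5% of all genes, and the median of the 10 was -0.32 against -0.01 over all genes.

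The sizes of these differences held better than their calls. Over the 6 fits without 1 library they were -0.66 to -0.37 for Mbnl1, -0.63 to -0.39 for Mbnl2, -0.74 to -0.50 for Mbnl3 and -0.54 to -0.42 for Ptbp3. The Ptbp3 call held in 6 of 6 fits without 1 library, the Mbnl3 call in 4 and the Mbnl1 and Mbnl2 calls in 3. Without the PCBP2 hairpin SH4, edgeR's adjusted p was 0.108 for Mbnl1, 0.109 for Mbnl2 and 0.0604 for Mbnl3. Without the PCBP1 hairpin SH1 it was 0.0632 for Mbnl1 and 0.0973 for Mbnl2, without the PCBP2 hairpin SH1 it was 0.0635 and 0.0655, and without the PCBP1 hairpin SH4 it was 0.0533 for Mbnl3. Fitted on the 9 Day 2 libraries alone, 0 of 9 members tested were called, at edgeR adjusted p = 0.107, 0.113, 0.093 and 0.076 for Mbnl1, Mbnl2, Mbnl3 and Ptbp3, with differences of -0.44, -0.44, -0.54 and -0.41. DESeq2 called these 4 genes too. The summed lymphoid markers were at 9.72 to 14.9 CPM in PCBP2 and at 13.8 to 21.6 CPM in PCBP1 knockdown, with overlap, with Il7r lower (2.97 and 11.9 CPM) and Cd79a higher (7.79 and 5.56 CPM) in PCBP2 knockdown. The endothelial and stromal markers were at 32.7 to 35.6 and 26.1 to 29.4 CPM, without overlap. The part of these markers was not tested.

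The transcripts of each gene were then examined by level and by share of the gene's reads. Between the days in controls, edgeR called 61.2% of 46901 tested transcripts for level and 75 of 107 member transcripts (52 rose, 23 fell). For share, 13% of 38216 transcripts were called and 25 of the members' 107, of which limma called 23 as well. Shares are called here by both tools unless one is named, because edgeR's share test gave 29.2% false calls among its calls on simulated data and limma's gave 8.96%. The simulated transcripts varied less between libraries than the real ones, so these rates may not hold here.

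Ptbp3 had the widest change of transcript shares, with 7 of its 11 tested transcripts called by both tools. Ptbp3-212, the main form at Day 0, held 67.6%, 61.9% and 64.5% of Ptbp3 reads in Day 0 controls and 32.8%, 24.3% and 25.3% at Day 2 (edgeR adjusted p = 0.00173, limma 1.87e-16). Ptbp3-202 held 0.154%, 0.232% and 0.0% and then 18.3%, 21.7% and 21.9% (edgeR adjusted p = 1.65e-29, limma 7.55e-12). Ptbp3-210 went from at most 0.0586% to 8.81%, 8.69% and 5.88%, and Ptbp3-213, annotated as a target of nonsense-mediated decay, from 0.201% to 0.484% up to 5.38% to 6.74%. The level of Ptbp3-212 itself rose between the days (log2 fold change 0.76, SE 0.20, edgeR adjusted p = 0.00454). The gene as a whole rose more (2.30).

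The forms differ at their 3′ end. On the minus strand, Ptbp3-212 and Ptbp3-201 end at positions 59472048 and 59471868 of chromosome 4, beyond Ptbp3-202 at 59475259 and the 4 other long forms. This grouping was chosen after the values were seen and is given without a test. Of the TPM of the 7 forms that span the gene, the 2 with the distal end held 92.1%, 92.0% and 95.4% in Day 0 controls and 32.1%, 25.9% and 26.0% in Day 2 controls. In Day 2 PCBP1 knockdown they held 47.1%, 36.9% and 34.8%, above the controls, and in PCBP2 knockdown 28.6%, 27.1% and 21.9%. The fourth exon (170 bases, chr4:59517586-59517755) is absent from Ptbp3-203, Ptbp3-210, Ptbp3-211 and Ptbp3-213. Of the TPM of the 9 transcripts that span this exon and hold or lack it, those with it held 97.9% ± 0.6 in Day 0 controls and 68.4% ± 5.7 in Day 2 controls (SD, n = 3). In the authors' deposited tables, the junction leaving that exon held 99.9% (Day 0 controls) and 98.6% (Day 2 controls) of the junctions entering the exon downstream of it. Transcript estimates and junction shares therefore differ here.

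In PCBP1 knockdown at Day 2, 7 of 107 member transcripts were called for level (5 rose, 2 fell; 3.28% of all transcripts) and 3 for share (1.08% of all). The fit on the 9 Day 2 libraries alone called 0 for level, and fits without 1 library called 2 to 8. Ptbp3-212 rose, at 677, 505 and 453 CPM against 381, 239 and 213 CPM (log2 fold change 0.97, SE 0.20, edgeR adjusted p = 0.0195). Its share was 51.6%, 40.3% and 37.8% against 32.8%, 24.3% and 25.3%, called by limma (adjusted p = 1.22e-06) but not by edgeR (0.538). Ptbp3-205 fell, at 13, 22.2 and 21 CPM against 32.1, 64.7 and 98.9 CPM (-1.80, SE 0.32, edgeR adjusted p = 0.00761), and its share fell from 7.03% ± 4.53 to 1.5% ± 0.445 (edgeR adjusted p = 0.00184, limma 1.24e-06). In the PCBP2 knockdown, Ptbp3-205 held 2.99%, 2.96% and 3.55%, a difference from control that limma called (adjusted p = 0.0423) and edgeR did not (0.411).

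For Mbnl1, the largest called change of a transcript's share at Day 2 was in PCBP2 knockdown. Mbnl1-201, a protein-coding form with the 36-base exon and without the 54-base exon, was at 143.0, 108.0 and 84.0 CPM in controls and at 22.6, 8.56 and 18.5 CPM in PCBP2 knockdown (log2 fold change -2.76, SE 0.35, edgeR adjusted p = 0.00287). It held 16.9%, 16.6% and 12.4% of Mbnl1 reads in controls, 2.98%, 0.904% and 2.92% in PCBP2 knockdown (edgeR adjusted p = 3.83e-16, limma 1.52e-17), and 12.6%, 9.73% and 5.46% in PCBP1 knockdown, a difference from control that limma called (adjusted p = 0.00295) and edgeR did not (0.215). The groups of control and PCBP2 knockdown were far apart, while the gene as a whole did not pass the test in that comparison. No like change was seen at either exon. In the authors' deposited tables at Day 2, junction inclusion of the 54-base exon was 73.6% in PCBP2 knockdown and 74.2% in control. That of the 36-base exon was 67.4% and 70.9%, and its share by TPM was 54.9% ± 1.9 and 57.0% ± 2.8 (SD, n = 3). The error of splitting reads between transcripts is not in these tests. At Day 0 the share of Mbnl1-201 was 21.1%, 21.9% and 17.4% in PCBP2 knockdown and 22.9% to 25.0% in controls, and was not called. The difference at Day 2 between the knockdowns was not tested for transcripts.

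Mbnl1-211, which also has the 36-base exon and lacks the 54-base exon, had the opposite sign. It held 4.69%, 1.84% and 4.08% in Day 2 controls, 8.82%, 7.63% and 11.2% in PCBP1 knockdown (edgeR adjusted p = 0.00137, limma 2.32e-05) and 9.02%, 9.24% and 7.86% in PCBP2 knockdown (edgeR adjusted p = 0.00295, limma 2.45e-04). Its level rose in PCBP1 knockdown (1.91, SE 0.32, edgeR adjusted p = 0.00589). Mbnl1-203 rose with the gene (0.90, SE 0.21, edgeR adjusted p = 0.0323), without a called change of share. Mbnl1-207 held 1.5% of reads in controls and 3.56% in PCBP2 knockdown (edgeR adjusted p = 0.045, limma 0.0138). Between the days in controls, Mbnl1-218, which holds the 54-base exon, went from 6.3%, 7.47% and 8.36% to 14.6%, 25.0% and 19.1%, and its share was called higher.

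Mbnl2 has 2 quantified transcripts of 10 annotated. Mbnl2-202, with the 36-base exon, held 21.4%, 7.36% and 14.2% of reads in Day 2 controls and 4.73%, 0.468% and 1.89% in PCBP2 knockdown (edgeR adjusted p = 0.00754, limma 0.0439), without overlap. Its level fell from 29.9, 7.64 and 16.7 CPM to 4.72, 0.568 and 1.64 CPM (-2.99, SE 0.62, edgeR adjusted p = 0.0348). Mbnl3-202 rose in PCBP1 knockdown at Day 2, at 10.1, 6.5 and 9.23 CPM against 5.65, 4.92 and 4.24 CPM (0.80, SE 0.19, edgeR adjusted p = 0.0364). Mbnl3-203 held 11.9%, 7.11% and 14.4% of Mbnl3 reads in Day 2 controls and 0.0%, 0.375% and 0.0% in PCBP1 knockdown (edgeR adjusted p = 0.00289, limma 0.0219), at levels near 1 CPM in controls. Mbnl3-206, an annotated retained intron, held 5.09%, 4.95% and 5.0% in Day 0 controls and 34.8%, 39.9% and 26.9% at Day 2 (edgeR adjusted p = 0.00865, limma 3.96e-07), while the gene fell.

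The remaining calls of single transcripts were these. Ptbp1-206 held 8.11%, 3.77% and 2.28% of Ptbp1 reads in Day 0 controls and 10.6%, 14.5% and 7.0% in PCBP1 knockdown (edgeR adjusted p = 0.0452, limma 2.27e-06), with overlapping groups. Rbm39-201 was lower in share in that comparison, at 0.0%, 0.0748% and 0.0% against 2.39%, 2.18% and 5.64% (edgeR adjusted p = 9.27e-12, limma 2.06e-06). Ptbp1-210, a retained intron at under 1 CPM, fell in PCBP1 knockdown at Day 2 (-1.72, SE 0.39, edgeR adjusted p = 0.0292). Ptbp1-216, the main Ptbp1 form, fell in PCBP2 knockdown at Day 2 from 33.4, 32.5 and 32.7 CPM to 21.3, 27.6 and 23.9 CPM (-0.44, edgeR adjusted p = 0.0467). Celf2-206 rose in PCBP1 knockdown at Day 2 (0.70, SE 0.17, edgeR adjusted p = 0.0381).

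In counts, 0 of 107 member transcripts were called for level in either knockdown at Day 0, where 0.0746% (PCBP1) and 0.0128% (PCBP2) of all transcripts were. For share, 2 were called in PCBP1 knockdown at Day 0 (0.55% of all) and 1 in PCBP2 knockdown (0.23% of all), which was Ptbp3-202 by edgeR alone. In PCBP2 knockdown at Day 2, 3 fell in level (0.919% of all; 0 on the 9 Day 2 libraries alone, 1 to 4 without 1 library) and 6 were called for share (1% of all), 4 of them by both tools.

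**Figure D4:**
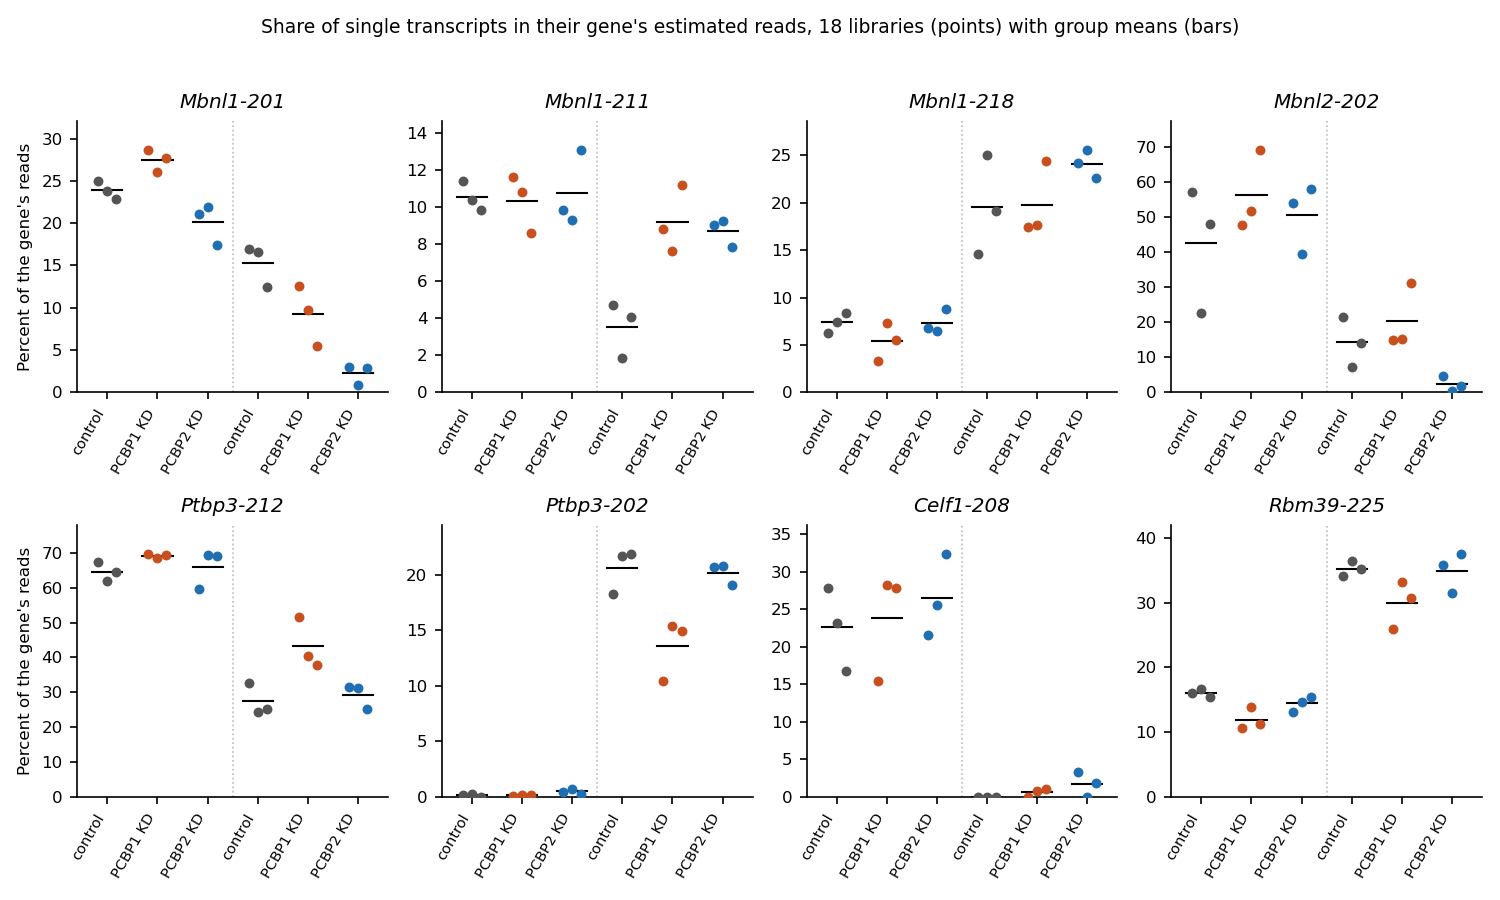
Share of the gene's estimated reads held by 8 member transcripts, in percent, in each of 18 libraries (points) with group means (bars), Day 0 left and Day 2 right of the dotted line. Ptbp3-212 falls and Ptbp3-202 rises in share between the days, Rbm39-225 is higher at Day 2 in all 3 conditions, and Mbnl1-201 is at 0.904% to 2.98% in Day 2 PCBP2 knockdown against 12.4% to 16.9% in controls.

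Rbm39-225, the form with the 73-base exon and its stop codon, held 16.0%, 16.7% and 15.5% of Rbm39 reads in Day 0 controls and 34.1%, 36.5% and 35.2% at Day 2 (edgeR adjusted p = 3.49e-05, limma 5.41e-15). The rise of Rbm39 reads is therefore in part one of a form annotated as a target of decay: Rbm39-225 rose by 2.57 (log2, SE 0.14) and the coding form Rbm39-217 by 0.96 (SE 0.12). Rbm39-217 held 48.4%, 48.7% and 51.8% and then 38.9%, 31.3% and 35.9%, a difference called by limma (adjusted p = 6.25e-06) and not by edgeR (0.148). In the knockdowns at Day 2, Rbm39-225 held 25.9%, 33.3% and 30.8% (PCBP1) and 35.8%, 31.5% and 37.6% (PCBP2), and was not called against control.

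Celf1-208 held 27.9%, 23.2% and 16.8% of Celf1 reads in Day 0 controls and was listed at 0 in all 3 Day 2 controls, which allows a share of up to 0.14%, 0.132% and 0.189% at 3 reads (edgeR adjusted p = 1.64e-13, limma 0.00416). In the Day 2 knockdowns it held 0.0%, 0.749% and 0.955% (PCBP1) and 3.27%, 0.0% and 1.8% (PCBP2). Celf1-205 held 28.3%, 23.6% and 32.8% at Day 0 and 46.8%, 47.5% and 53.4% at Day 2, and was not called. Such limits cover counting error only.

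Further transcripts that reached 10% of their gene in a group had no share called by both tools. Between the days in controls, the mean share of Mbnl1-214 was 20.7% ± 0.0882 and 26.6% ± 3.55 (SD, n = 3), that of Ptbp1-202 21.9% ± 3.25 and 22.2% ± 4.92, and that of Ptbp1-201 11.6% ± 0.641 and 8.96% ± 1.41. Ptbp2-201 held 46.4% ± 2.53 and 63.9% ± 5.28, a difference that limma called (adjusted p = 0.00492) and edgeR did not (0.636). Ptbp2-213 had the same pattern of calls in the other direction, at 9.91% ± 3.3 and 3.89% ± 3.65, and Ptbp2-205 held 21.8% ± 0.238 and 12.7% ± 6.99. Mbnl2-201 held 57.5% ± 18 and 85.7% ± 7.0, called by limma alone (adjusted p = 0.00156). Celf1-204 held 18.9% ± 2.73 and 15.6% ± 1.42, while Celf1-202, Celf1-203, Celf1-207 and Celf2-214 held between 2.74% and 15.9%. For Rbfox2-201, Rbfox2-202, Rbfox2-203 and Rbfox2-204 the shares ran from 0% to 100% between libraries, on few reads.

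Splice junctions were read from the authors' deposited tables of local splicing variations (LSVs), where an LSV is the set of junctions that leave or enter one exon. Each table gives, for pooled libraries of a group, the expected share of each junction (percent spliced in, PSI), the expected change E(dPSI) and the posterior probability of a change of 20 points or more. E(dPSI) is not the difference of the PSI values and is mostly smaller. No error or depth is given for these pooled values. The tables held LSVs for all members except Rbfox2, and for Celf2 at Day 0 only (10 LSVs).

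Across the authors' deposited tables, 1 member LSV in 1 comparison reached a probability of 0.95: 0 of 155 for PCBP1 knockdown at Day 0 (0.0573% of all LSVs), 0 of 157 for PCBP2 at Day 0 (0.0115%), 1 of 140 for PCBP1 at Day 2 (0.191%) and 0 of 137 for PCBP2 at Day 2 (0.0718%). An absolute E(dPSI) of 10 points or more was reached by 0, 1, 5 and 3 member LSVs in the authors' deposited tables, against 0.643%, 0.377%, 2.34% and 1.61% of all LSVs.

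The single call was the choice of first exon spliced to the second exon of Ptbp3 printed above. In the authors' deposited tables at Day 2, the junction from the first exon that ends at position 59549148 had a PSI of 67.6% in control, 27.4% in PCBP1 knockdown (E(dPSI) -41.1 points, probability 0.994) and 37.0% in PCBP2 knockdown (-26.3 points, 0.72). The junction from the first exon that ends at 59548531 had 29.5%, 72.1% (43.8 points, 0.999) and 61.2% (31.7 points, 0.894) in the same authors' deposited tables. Both knockdowns thus lay on the same side of the control, PCBP1 knockdown farther from it. The comparisons share their control libraries. The tables held no such LSV at Day 0.

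For the 54-base exon of Mbnl1, the authors' deposited tables gave an inclusion of 33.9% in control, 29.1% in PCBP1 knockdown and 38.3% in PCBP2 knockdown at Day 0, and of 74.2%, 59.5% and 73.6% at Day 2. The Day 2 value of PCBP1 knockdown had an E(dPSI) of -13.1 points and a probability of 0.148 in the authors' deposited table, so it is not a call. Counted at the downstream exon, the junction from the 54-base exon was at 63.9% in control and 47.1% in PCBP1 knockdown at Day 2 (-15.4 points, 0.273) and the junction that skips it at 33.5% and 49.7% (16.3 points, 0.253) in the authors' deposited table. Shares of TPM are known per library and count only the transcripts that span an exon and either hold it whole or lack it. Among these 14 Mbnl1 transcripts, the share with the 54-base exon was 28.8%, 31.0% and 29.3% in Day 0 controls and 24.1%, 25.0% and 24% in PCBP1 knockdown. At Day 2 it was 48.4%, 55.6% and 54.4% in controls, 38.2%, 45.1% and 48.3% in PCBP1 knockdown and 49.6%, 50.2% and 50.5% in PCBP2 knockdown. The groups of control and PCBP1 knockdown did not overlap on either day, although the highest knockdown library at Day 2 lay just below the lowest control. The shares of transcripts with an exon were chosen after the values were seen and were not tested, and 3 libraries against 3 allow no exact permutation p below 0.1.

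The 36-base exon of Mbnl1 went the other way between the days. Its inclusion in the authors' deposited tables was 81.5% in control, 88.4% in PCBP1 knockdown and 86.5% in PCBP2 knockdown at Day 0 and 70.9%, 74.7% and 67.4% at Day 2. By TPM, over the 12 transcripts compared, its inclusion was 73.1%, 73% and 72.5% in Day 0 controls and 59.8%, 54.3% and 56.8% in Day 2 controls. In Day 2 PCBP1 knockdown it was 66.3%, 61.1% and 60.5%. Junctions and transcripts had the same order here. The promoter-proximal part of Mbnl1 also differed between the days: in the authors' deposited tables, the junctions into the exon that starts at 60528756 came from the first exon ending at 60473173 at 50.3% in Day 0 controls and 6.2% in Day 2 controls, and from that ending at 60501423 at 47.3% and 88.0%.

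For the 36-base exon of Mbnl2, the measures disagreed. Its inclusion in controls was 12.7% at Day 0 and 50.4% at Day 2 in the authors' deposited tables (41.8% in PCBP1 and 48.8% in PCBP2 knockdown). The TPM share of the single quantified transcript that holds it, Mbnl2-202, was 57.4%, 22.7% and 48.3% in Day 0 controls and 21.6%, 7.44% and 14.4% at Day 2. The fall of Mbnl2-202 in PCBP2 knockdown at Day 2 therefore stands beside a junction share of 48.8% against 50.4% in control. Only 2 of 10 annotated Mbnl2 transcripts were quantified, and both hold the 54-base exon.

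The PTBP exons known for autoregulation and cross-regulation had no LSV past 10 points. In the authors' deposited tables the 34-base exon of Ptbp1 was included at 93.8% in Day 0 controls, that of Ptbp3 at 99.9%, and that of Ptbp2 at 7.3%, so that 92.7% of its junctions skipped it. The junction of the Ptbp2 exon was at 0.9% in PCBP1 and 1.1% in PCBP2 knockdown at Day 0 in the authors' deposited tables, with an E(dPSI) of -3.1 points in each. Of the TPM of the 6 Ptbp2 transcripts that span the exon and hold or lack it, those with it held 55.4%, 60.3% and 59.4% in Day 0 controls, far above the junction value. These 6 had 21.8, 17.5 and 15.4 of the gene's 34.5, 30.5 and 27.0 TPM. The 78-base exon of Ptbp1 was included at 41.1% in Day 0 controls and 38.0% in Day 2 controls, and at 31.7% in PCBP1 and 29.0% in PCBP2 knockdown at Day 2, in the authors' deposited tables. None of these junctions reached an E(dPSI) of 10 points in the authors' deposited tables, which compare a knockdown with control within a day.

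The 73-base exon of Rbm39 was included at 56.0% in control, 55.9% in PCBP1 knockdown and 55.4% in PCBP2 knockdown at Day 0 and at 80.8%, 75.3% and 78.2% at Day 2 in the authors' deposited tables. The share by TPM was taken among the 15 Rbm39 transcripts that span the exon and hold or lack it. In Day 0 controls these had 300, 282 and 251 of the gene's 378, 342 and 308 TPM. Transcripts with the exon held 29.5%, 29.4% and 27.7% of the TPM compared in Day 0 controls. They held 25.5%, 26.7% and 24.3% in PCBP1 knockdown and 25.4%, 26.8% and 26.8% in PCBP2 knockdown, both below the controls without overlap. The pooled PSI was nearly equal at Day 0, and no share of such exons without overlap was computed over all genes. At Day 2 transcripts with the exon held 47.6%, 51.7% and 48.6% in controls, 38.9%, 43.2% and 45.2% in PCBP1 knockdown and 50.1%, 46.6% and 53.8% in PCBP2 knockdown. Both measures were higher at Day 2 than at Day 0 in every condition, and the TPM share of the PCBP1 libraries at Day 2 lay below that of the controls without overlap. A second Rbm39 LSV, into the exon at chr2:156174093-156174208, had a junction at 53.7% in control and 75.0% in PCBP1 knockdown at Day 2 (E(dPSI) 18.4 points, probability 0.525) in the authors' deposited table.

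**Figure D5:**
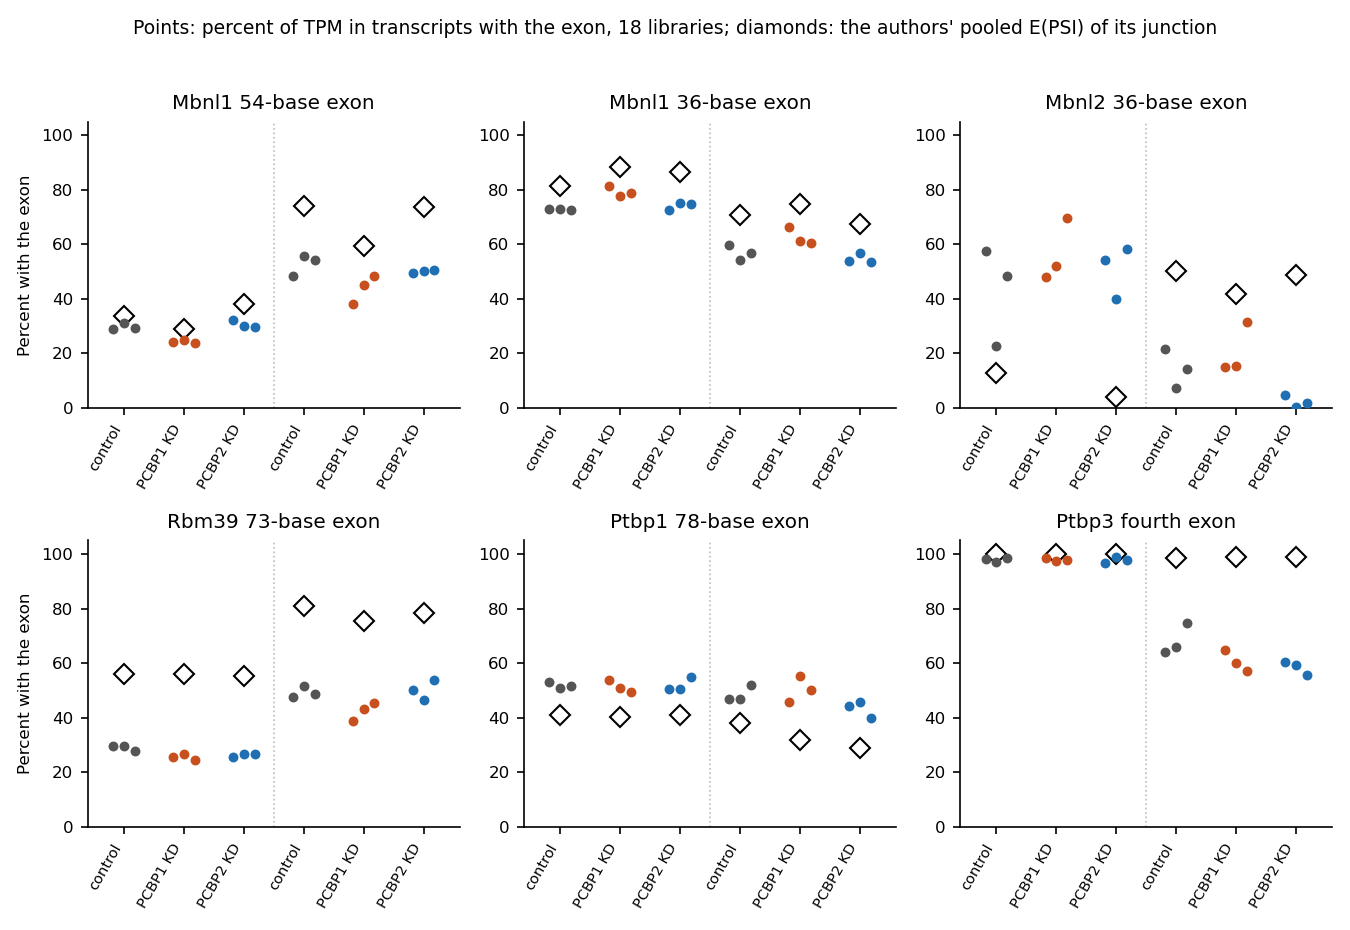
Percent with each of 6 exons by condition, Day 0 left and Day 2 right of the dotted line. Points are the TPM share of transcripts with the exon, among those that span it and hold or lack it, in each of 18 libraries. Diamonds are the pooled PSI from the authors' deposited tables (none listed for Mbnl2 in Day 0 PCBP1 knockdown). The 54-base exon of Mbnl1 and the 73-base exon of Rbm39 are higher at Day 2 by both measures, the 36-base exon of Mbnl1 is lower by both, and for the 36-base exon of Mbnl2 the measures go in opposite directions.

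The other member LSVs past 10 points in the authors' deposited tables were single junctions without a call. At Day 2 the junction from the Celf1 exon ending at 90940641 into the exon at chr2:90998579-90998767 had a PSI of 57.9% in control and 31.8% in PCBP1 knockdown (E(dPSI) -12.4 points, probability 0.281) in the authors' deposited table, and it was at 17.5% in Day 0 controls. The Celf1 junction from the exon ending at 91008300 to position 91009202 was at 17.9% in control and 32.7% in PCBP2 knockdown at Day 2 (12.3 points, 0.158). In the same authors' deposited table the Ptbp1 junction from 79856534 to 79858752 was at 87.4% and 66.0% (-10.7 points, 0.221). At Day 0 the Mbnl1 junction from 60501423 to 60595594 was at 30.9% in control and 49.2% in PCBP2 knockdown (14.3 points, 0.345) in the authors' deposited table.

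Between the days, the control PSI of 23 of 134 member LSVs present on both days differed by 10 points or more (17.2%, against 14.3% of 84780 LSVs) in the authors' deposited tables, and that of 14 by 20 points or more (10.4%, against 5.38%). They were 8 of 35 in Rbm39, 7 of 20 in Celf1, 5 of 19 in Mbnl1, 2 of 11 in Mbnl2, 1 of 24 in Ptbp3 and none of the 14 in Ptbp1, 6 in Ptbp2 and 5 in Mbnl3. This comparison of pooled values across tables was made after the values were seen and has no test.

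The wider set of regulators was followed with lists. Of 28 other tissue splicing regulators, 18 passed the filter on low counts. In PCBP1 knockdown at Day 2, 1 rose (Elavl1, 0.33, SE 0.10, edgeR adjusted p = 0.0325) and 2 fell, Celf6 (-2.51, SE 0.46, adjusted p = 0.00145) and the erythroid splicing factor Rbm38. Celf6 was low in both groups, at 3.16 ± 1.5 CPM in controls and 0.551 ± 0.315 CPM in the knockdown. Rbm38 was at 1002 ± 332 CPM in controls and at 627 ± 36.4 CPM in PCBP1 knockdown (-0.67, SE 0.18, edgeR adjusted p = 0.0156), and at 578 ± 40.2 CPM in PCBP2 knockdown (-0.79, SE 0.18, adjusted p = 0.0149). In PCBP2 knockdown Tial1 also fell (-0.41, SE 0.09, edgeR adjusted p = 0.0103), from 123 ± 12.6 to 92.9 ± 4.28 CPM. None of the 18 changed in either knockdown at Day 0. Of all genes 13.1% were called in PCBP1 knockdown and 4.7% in PCBP2 knockdown at Day 2. Between the days in controls 7 rose and 8 fell, near the 82.9% of all genes called, led by Rbm38 (4.79, SE 0.21, edgeR adjusted p = 5.26e-15) and Khdrbs1 (-1.99, SE 0.10, adjusted p = 3.93e-14). The median of the 18 was 0.17 against -0.05 over all genes.

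Of 18 partners and related factors, such as the PTBP1 co-repressor Raver1 and the U2AF subunits, 17 were tested. Rbm10 fell in PCBP1 knockdown at Day 2 (-0.34, SE 0.11, edgeR adjusted p = 0.0432), from 91.5 ± 10.1 to 72.4 ± 2.68 CPM, where 13.1% of all genes were called and 7.61% fell. No other partner was called in a knockdown against control. Between the days in controls 6 rose and 8 fell, near the 82.9% of all genes called. Raver1 fell with Ptbp1, from 97.0 ± 5.14 to 17.5 ± 3.92 CPM (-2.47, SE 0.15, edgeR adjusted p = 8.55e-13), and U2af1 fell from 126 ± 8.13 to 30.2 ± 3.25 CPM (-2.05, SE 0.13, adjusted p = 1.58e-12). Rbm5 rose from 96.6 ± 6.53 to 385 ± 57.4 CPM (2.00, SE 0.10, edgeR adjusted p = 7.85e-14).

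Of 10 genes reported as splicing targets of the members, all were tested. In PCBP1 knockdown at Day 2, Ndel1 (-0.28, SE 0.09, edgeR adjusted p = 0.0421) and Epb41, the membrane skeleton protein 4.1R (-0.26, SE 0.09, adjusted p = 0.0443), fell. In PCBP2 knockdown Add1 (-0.48, SE 0.11, edgeR adjusted p = 0.017) and Numa1 (-0.36, SE 0.09, adjusted p = 0.022) fell. Of all genes, 7.61% fell in PCBP1 knockdown and 3.75% in PCBP2 knockdown at Day 2. Between the knockdowns at Day 2, 1 target was higher in PCBP2 knockdown (Ndel1, 0.31, SE 0.09, edgeR adjusted p = 0.0261) and 2 were lower (Numa1 and Kif13a), and of the other regulators Celf6 was higher and Tial1 lower. Of all genes, 4.79% were higher and 7.3% lower in that comparison. Between the days in controls 7 targets rose and 3 fell, where 40.5% of all genes rose and 42.4% fell. The authors' deposited tables held no LSV for Epb41, and none for Kif13a at Day 2. At Day 0, 5 of 247 (PCBP1 knockdown) and 0 of 248 (PCBP2 knockdown) target LSVs reached an absolute E(dPSI) of 10 points. At Day 2, 7 of 225 and 8 of 222 did. The shares over all LSVs were 0.643%, 0.377%, 2.34% and 1.61%. The target LSVs lay in Ktn1, Ndel1, Numa1, Picalm, Pkm and Spag9. At a probability of 0.95 there was 1 target LSV, in PCBP1 knockdown at Day 0 (0.0573% of all LSVs). It lay in Pkm, whose mutually exclusive exons are known targets of PTBP1. In the authors' deposited table its junction between 59675195 and 59678044 had a PSI of 6.6% in Day 0 control, 36.5% in PCBP1 knockdown (E(dPSI) 29.5 points, probability 1.0) and 12.5% in PCBP2 knockdown. At Day 2 it was 35.9%, 60.7% (24.9 points, 0.839) and 49.0% (11.1 points, 0.087) in the authors' deposited tables. The other main junction of this LSV, between 59675734 and 59678044, was at 93.1%, 62.3% (-30.4 points) and 86.8% (-5.1 points) at Day 0 in the authors' deposited tables. At Day 2 it was at 37.6%, 19.4% (-17.8 points, 0.398) and 16.8% (-21.3 points, 0.624). By this junction PCBP2 knockdown lay farther from control than PCBP1 knockdown at Day 2. Ptbp1 RNA was not called in any of the 4 comparisons of a knockdown with control: it was at 357, 372 and 351 CPM in Day 0 controls and 324, 330.4 and 354 CPM in Day 0 PCBP1 knockdown. These are RNA levels, and any part of PTBP1 in the Pkm junctions was not tested.

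For the 4 members called within a day, the genes with the most similar course over the 18 libraries were found by Pearson's r of log2 CPM after the mean of each day was subtracted, among 9708 genes. These values describe the libraries and carry no test, since all genes share the libraries and their depth. Mbnl1 was closest to Mbd2 (r = 0.905), Ubxn2b (0.899) and Lims1 (0.877), and Mbnl2 to Tnks (0.894), Aldoc (0.889) and Cela1 (0.87). Mbnl3 was closest to Fam20b (0.959), Nedd4 (0.95) and Prpf8 (0.941), and Ptbp3 to Metap1d (0.918), Ankrd28 (0.905) and Gas2 (0.904).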

How the data were processed

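RNA was sequenced from 18 libraries with a TruSeq kit on total RNA, per the labels' protocols. The submitters' processing notes name FastQC 0.11.9, Trim Galore 1.46.0, STAR 2.5.3a, SAMtools 1.9, Salmon 0.11.3 and GRCm38, with no role or order. For each library the authors deposited Salmon output listing 111706 transcripts, each with its estimated count and its TPM value, per the file headers. A further 4 deposited tables hold local splicing variations, in which PSI is a fraction from 0 to 1 for the pooled libraries of a group and each junction has a posterior probability, per the file headers; the tool was not given in the sources used here. PSI and E(dPSI) are printed as percent and points.

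Of the transcripts, 110403 matched GENCODE M21 by identifier and 1303 did not and were left out. Estimated counts were summed per gene, rounded to whole numbers and fitted with edgeR 4.0.16 in R 4.3.3: 1 mean for each of 6 groups over all 18 libraries, TMM scaling, the filterByExpr filter, quasi-likelihood tests with 12 residual degrees of freedom, and Benjamini-Hochberg adjustment over all genes at 0.05. Transcripts were fitted the same way, and shares within a gene with edgeR's diffSpliceDGE and, as an alternative, limma 3.58.1. DESeq2 1.42.0, library totals, no filter, a GC correction, single days and leaving out libraries were the other alternatives. There were 11 comparisons of genes and 5 of transcripts. The words "rose" and "fell" mark results past that threshold. On simulated data for PCBP1 knockdown at Day 0, with 13775 genes, edgeR recovered 96% of 2-fold rises and 86% of 2-fold falls with 4.5% false calls. DESeq2 recovered 90% and 80% on the same genes, with 12.3% false calls. With 31939 transcripts edgeR recovered 44% and 28%. The simulated transcripts varied less between libraries than the real ones, so the simulated rates for transcripts and shares may not hold for these data.

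The rule for names took all 10 genes and the hairpin targets, transcripts with at least 10% of the gene's reads in a group mean or with a call, LSVs with a probability of at least 0.95 or an absolute E(dPSI) of at least 10 points, and the regulated cassette exons. Genes without a call in a comparison, and most transcripts called between the days, are given there as counts or ranges only. At most 4 genes per list and comparison are named, by smallest p, and 3 similar genes for each member called within a day. The members and lists were chosen with earlier results of these data known. Exon sequences and positions come from the GENCODE M21 transcripts.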

Additional observations from a re-analysis of the deposited data

How the results depend on the processing

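Of 244 alternative counts for 25 counted results, 207 stayed within 1.5 times the reported count, and of 434 alternative values for 36 called member values, 418 stayed called, 16 lost the call and 0 reversed. For PCBP1 knockdown at Day 0, 1 gene was called with no filter and 2 on the 9 libraries of the day alone. For PCBP1 knockdown at Day 2 (2 genes), DESeq2 called 4, library totals 6 and the GC correction 1. Between the knockdowns at Day 2 (4 genes), the 9 libraries alone gave 0. For member transcripts in PCBP1 knockdown at Day 2 (7), DESeq2 called 18, no filter 4 and the 9 libraries 0, and in PCBP2 knockdown at Day 2 (3), DESeq2 called 9 and the 9 libraries 0. For shares, transcripts with at least 10% of their gene gave 0 in PCBP1 knockdown at Day 0 (2 reported), 0 in PCBP2 knockdown at Day 0 (1 reported) and 8 between the days (25 reported). limma called 2 in PCBP2 knockdown at Day 0 and 6 in PCBP1 knockdown at Day 2 (3 reported), and the 9 libraries gave 2 in PCBP2 knockdown at Day 0 and 3 at Day 2 (6 reported). With an absolute E(dPSI) of 10 points in place of the probability, the authors' deposited tables gave 1, 5 and 3 member LSVs for PCBP2 at Day 0, PCBP1 at Day 2 and PCBP2 at Day 2. The cause of these differences was not tested. Leaving out 1 library gave 2 to 3 genes in PCBP1 knockdown at Day 2, 1 to 4 between the knockdowns at Day 2, 2 to 8 transcripts in PCBP1 and 1 to 4 in PCBP2 knockdown at Day 2, 63 to 69 between the days, and for shares 1 to 2 (PCBP1, Day 0), 0 to 2 (PCBP2, Day 0), 2 to 5 (PCBP1, Day 2), 4 to 6 (PCBP2, Day 2) and 21 to 26 (days). Other gene counts were 0 or 10 in every such fit.

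Same-numbered libraries of the knockdowns within a day, and same-named libraries over the days, correlated at -0.044 to 0.062 in their deviations from the group means. The main fits therefore did not pair the samples, although such low values do not show that the samples are unpaired. With a replicate block, 4 genes were called between the knockdowns at Day 2, 10 between the days in each condition and 0 in the knockdown comparison at Day 0 and in the changes of effect, and the same with a GC correction added. With the block, 67 member transcripts were called for level and 28 for share between the days in controls. Control libraries carry other labels than the knockdowns, so no paired analysis against control was possible. Limits: 3 libraries a group, hairpins as replicates, transcript estimates for incomplete sets of Mbnl2 and Rbfox2 forms, and pooled PSI without error or depth limit the precision, and Rbfox2 at Day 2 rests on 0 to 7 reads per library.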

Other observations

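Some junctions belong in none of the comparisons above. In the authors' deposited tables, the junction from the 54-base exon of Mbnl2 to position 120396451 was used at 89.4% in control, 89.7% in PCBP1 knockdown and 98.1% in PCBP2 knockdown at Day 2, as a share of the junctions entering that downstream exon. The alternative 5′ splice sites at 59524395 and 59524404 of a Ptbp3 exon were used at 89.2% and 10.7% in Day 0 controls and at 88.4% and 10.9% in Day 2 controls in the authors' deposited tables. Celf2 had LSVs at Day 0 and none listed at Day 2. Its level was 30.3 to 33.6 CPM in Day 0 controls and 7.04 to 9.68 CPM in Day 2 controls.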
